A study of Homo sapiens with 10 samples.

Results

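A group of 9 transcription factors that set neuroendocrine and pancreatic cell identity was followed across every sample of the series: INSM1, NEUROD1, NKX2-2, PAX6, ISL1, FOXA2, RFX6, PDX1 and SOX9. They were chosen by name, as 9 of the 35606 genes listed in both expression tables; the rule used no measured value, but earlier results of these data were known when it was set. The cells were QGP-1 (QGP1 in the sample labels), an established human pancreatic neuroendocrine tumor line. RNA-seq covered 10 samples in 5 groups of 2. In the knockdown table, stable CRISPR interference lines carried either the control guide sgNC (labelled WT) or a single guide against PIKFYVE, sgPIKFYVE_1, together with a nuclease-dead Cas9 joined to the KRAB repressor, and had been selected with puromycin. In the drug table, wild-type cells received DMSO, 1 uM Apilimod, which inhibits the lipid kinase PIKfyve, or 100 nM Torin1, which inhibits the kinase mTOR. The labels give 24 h for both drugs, whereas the text of the study gives a shorter time for its RNA-seq. The labels do not say whether the 2 samples of a group came from separate cultures, so p-values measure the spread between these samples, which may be technical.

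These factors act at different steps of endocrine cell formation. FOXA2 opens chromatin in the foregut endoderm, PDX1 and SOX9 mark the pancreatic progenitors that follow, and SOX9 persists in duct cells while endocrine cells lose it. INSM1, NEUROD1, NKX2-2, PAX6, ISL1 and RFX6 act in endocrine precursors and in mature islet and enteroendocrine cells, where they maintain hormone, granule and ion channel genes. INSM1 and ISL1 also serve as nuclear markers of neuroendocrine tumors.

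Values are on the scale of counts per 1 M reads (CPM), with library sizes adjusted by the TMM method separately in each table. The samples held an estimated 9.30 to 13.6 M reads, so that 3 reads correspond to 0.227 to 0.329 CPM. This limit is one of counting error alone. The targeted gene PIKFYVE was at 100.7 and 97.5 CPM with sgNC and at 10.9 and 12.5 CPM with sgPIKFYVE_1, or 11.8% of control. Transcripts of CHGA and SYP, defining markers of the labelled cell type, averaged 431 and 204 CPM with sgNC. Of the 18 neuroendocrine markers examined, 17 averaged at least 1 CPM with sgNC. Of the 20 islet hormone and islet function genes examined, INS and GCG, which encode insulin and glucagon, were listed at 0 in all 10 samples, whereas SST (somatostatin) averaged 642 CPM with sgNC. Acinar markers were low: 7 of 15 in the knockdown table and 6 of 15 in the drug table were at 0 in every sample, and PTF1A, the defining acinar factor, was at 0 in all 10. Duct markers were not low as a list, since KRT7 and TSPAN8 averaged 514 and 843 CPM with sgNC.

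Of the 9 factors, 7 averaged at least 1 CPM in both control groups. Divided by the annotated exon length, FOXA2 was the most abundant factor with sgNC at 46.2 ± 2.26 CPM per kb (SD, n = 2), followed by INSM1 at 27.3 ± 0.284, SOX9 at 10.9 ± 0.0757, ISL1 at 4.56 ± 0.833, NKX2-2 at 2.88 ± 0.060, PAX6 at 1.002 ± 0.0569 and PDX1 at 0.826 ± 0.0666. With DMSO the order of CPM per kb was INSM1 (47.8 ± 1.94, SD, n = 2), FOXA2 (35.5 ± 0.160), ISL1 (7.81 ± 0.0154), SOX9 (4.01 ± 0.310), NKX2-2 (3.20 ± 0.124), PAX6 (1.18 ± 0.0898) and PDX1 (0.789 ± 0.245). In neither control group did the 2 samples of a factor overlap those of its neighbour in this order. The length used for PAX6, 20.8 kb, joins the exons of all its annotated transcripts and lowers its value per kb. The control groups also differed from each other, in tables scaled separately and with no test: the mean CPM of SOX9 was 2.72 times as high with sgNC as with DMSO, while those of INSM1 and ISL1 were 1.75 and 1.71 times as high with DMSO.

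The 2 remaining factors were hardly detected. RFX6, a winged-helix factor of the endocrine lineage (chromosome 6, from 116877212 to 116932163 on GRCh38 in GENCODE release 29), was listed at 0 in all 10 samples, and with 0 reads a level up to the 3-read limit of 0.227 to 0.329 CPM would remain undetected. NEUROD1, a basic helix-loop-helix factor of islet and neuronal cells (chromosome 2, 181673088 to 181680876), was at 0.285 and 0.0888 CPM with sgNC and at 0.556 and 0.111 CPM with sgPIKFYVE_1. In the drug table it was at 0.186 and 0.506 CPM with DMSO, at 0 and 0.0764 CPM with Apilimod and at 0.2804 and 0.701 CPM with Torin1. It exceeded the 3-read limit in 5 of the 10 samples, and neither of these 2 factors passed the filter on a mean of 1 CPM. Without that filter, the adjusted p of NEUROD1 from limma with Benjamini-Hochberg adjustment was 0.639 for the knockdown, 0.406 for Apilimod and 0.646 for Torin1 against their controls. NEUROD1 shares its strand with the overlapping gene CERKL, which read between 0.776 and 2.45 CPM, so the split of reads between them is uncertain.

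**Figure D1:**
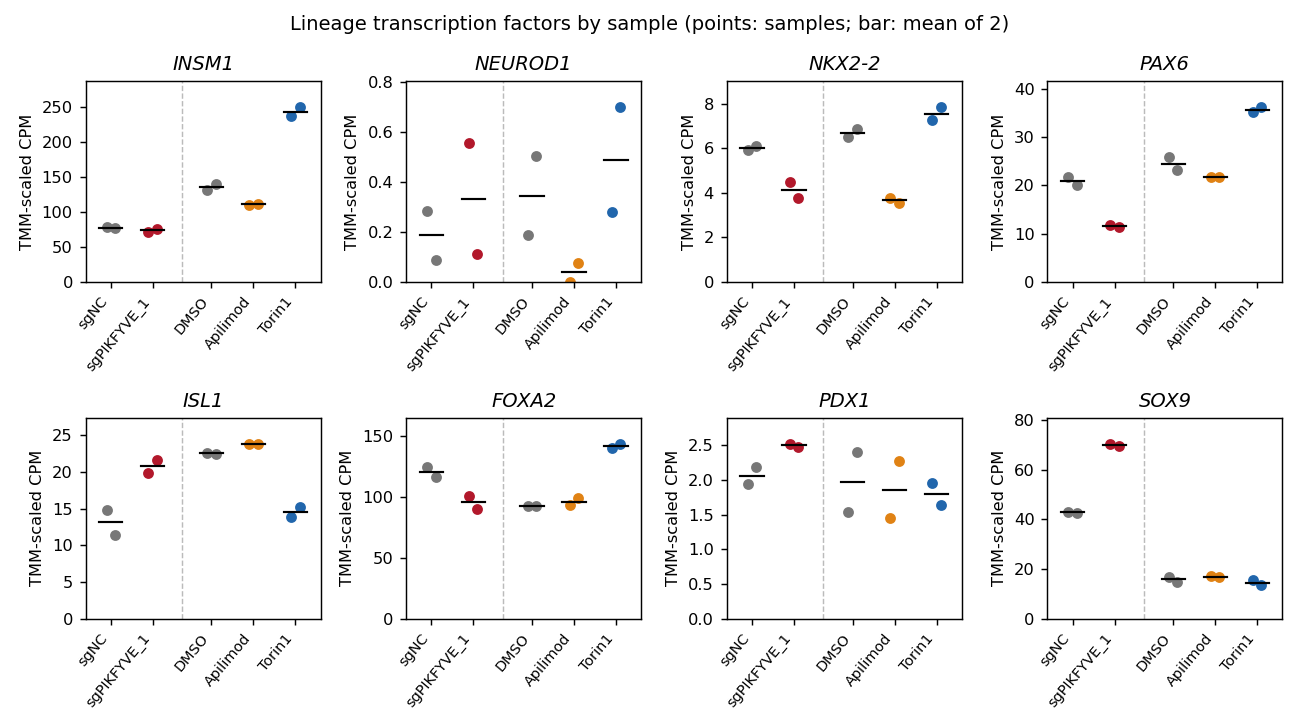
TMM-scaled CPM of the 8 factors detected in any sample; each point is 1 sample, each bar the mean of 2, and the dashed line separates the knockdown table from the drug table, which were scaled separately. RFX6, at 0 throughout, is not drawn. PAX6 lies at 11.4 and 11.8 CPM with sgPIKFYVE_1, INSM1 at 236.5 and 249.3 CPM with Torin1, and the SOX9 points lie between 13.5 and 17.2 CPM in all 6 samples of the drug table.

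The knockdown comparison asked how loss of PIKFYVE altered these factors. PAX6 and FOXA2 fell and SOX9 and ISL1 rose, each in both samples. Differences here and below are log2 fold changes on log2(CPM + 1), which understates changes of low genes, and calls are adjusted p-values under 0.05 from limma, with the Benjamini-Hochberg method applied to every gene tested. Of the 7 factors tested, 4 passed. Among all 13591 genes tested, 42.5% passed, 21.6% higher and 20.9% lower, and 70.6% had groups that did not overlap.

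PAX6, a paired-box factor needed for islet hormone expression, lies on chromosome 11 from 31784779 to 31818062, on the reverse strand. It was at 21.7 and 20.02 CPM with sgNC and at 11.8 and 11.4 CPM with sgPIKFYVE_1. Both knockdown samples lay below both controls, at 55.5% of the control mean (log2 fold change -0.80, SE 0.134, limma adjusted p = 8.74e-05). ELP4, whose annotation overlaps PAX6 on the opposite strand, read 157.5 and 146 CPM with sgNC and 105 and 113 CPM with sgPIKFYVE_1; whether reads were counted by strand is not given in the sources used here, so a share of either gene's reads could belong to the other.

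FOXA2, the forkhead factor, was at 124 and 116 CPM with sgNC and at 101 and 90.0 CPM with sgPIKFYVE_1. The groups did not overlap and the knockdown mean was 79.4% of control (log2 fold change -0.33, SE 0.0675, limma adjusted p = 5.75e-04). Without the variance trend in the fit the adjusted p of FOXA2 was 0.0656.

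SOX9, an HMG-box factor of progenitors and duct cells on chromosome 17 (72121020 to 72126420, forward strand), was at 43.1 and 42.7 CPM with sgNC and at 70.4 and 69.6 CPM with sgPIKFYVE_1. Its samples within each group differed by less than 1 CPM, and the knockdown mean was 1.63-fold higher (log2 fold change 0.69, SE 0.0762, limma adjusted p = 5.36e-07). ISL1, a LIM-homeodomain factor of islet and enteroendocrine cells on chromosome 5 (51383391 to 51394738, forward strand), was at 14.8 and 11.4 CPM with sgNC and at 19.8 and 21.7 CPM with sgPIKFYVE_1. Here too both knockdown samples exceeded both controls, by 1.58-fold on average (log2 fold change 0.63, SE 0.143, limma adjusted p = 0.00139).

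The other factors did not pass the test. INSM1, a zinc-finger repressor, was at 77.8 and 76.7 CPM with sgNC and at 71.5 and 75.9 CPM with sgPIKFYVE_1, with a log2 fold change of -0.07 and a 95% interval of -0.21 to 0.08. NKX2-2, a homeodomain factor, was at 5.94 and 6.11 CPM with sgNC and at 4.49 and 3.78 CPM with sgPIKFYVE_1, so the groups did not overlap, but its adjusted p was 0.0875 by limma (log2 fold change -0.46, 95% interval -0.89 to -0.02). This value depended on the fit, since the adjusted p was 0.0358 without the variance trend. PDX1, a homeodomain factor on chromosome 13 (27920020 to 27926231, forward strand), was at 1.95 and 2.18 CPM with sgNC and at 2.52 and 2.48 CPM with sgPIKFYVE_1, with an interval of -0.36 to 0.74 on the log2 scale around 0.19.

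Markers of duct cells, in which SOX9 is also expressed, moved in the same comparison. Of the 13 duct markers, 7 were tested, 4 rose and 1 fell, which is 71.4% of those tested beside 42.5% of all genes. The mucin MUC1 rose by 1.10 and the secreted phosphoprotein SPP1 by 1.06 on the log2 scale, whereas the keratin KRT7 fell by 0.56. The summed level of the 13 genes was 1439 and 1480 CPM with sgNC and 1821 and 1905 CPM with sgPIKFYVE_1. That rise came from 1 gene, TSPAN8, a tetraspanin, at 831 and 856 CPM with sgNC and 1311 and 1407 CPM with sgPIKFYVE_1. Without it, the sum was 608 and 625 CPM with sgNC and 509.5 and 498 CPM with sgPIKFYVE_1, lower in both knockdown samples. That fall in turn came from KRT7, at 506 and 522.5 CPM with sgNC and 355 and 341 CPM with sgPIKFYVE_1. Neither sum therefore describes the duct markers as a group. No duct marker was at 0 in all 4 samples. In bulk samples, fewer cells of a type and less RNA per cell cannot be told apart, and the part of the duct markers in the SOX9 result was not tested. The summed acinar markers were at 9.41 and 9.65 CPM with sgNC and at 9.20 and 8.20 CPM with sgPIKFYVE_1. Of 11 mesenchymal and immune markers 2 were tested, the collagen gene COL1A1 fell by 0.51, and the sum was 14.3 and 15.7 CPM with sgNC and 11.5 and 10.02 CPM with sgPIKFYVE_1.

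Apilimod against DMSO asked the same of chemical inhibition. NKX2-2 and INSM1 were lower in both treated samples, and the 5 other tested factors did not pass. These 2 of 7 factors stand beside 8.54% of all 13520 genes tested that passed, 5.75% higher and 2.79% lower, and beside 50.7% whose groups did not overlap.

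NKX2-2 (chromosome 20, from 21511010 to 21514026, reverse strand) was at 6.52 and 6.88 CPM with DMSO and at 3.78 and 3.55 CPM with Apilimod. The groups did not overlap, and the treated mean was 54.7% of control (log2 fold change -0.72, SE 0.171, limma adjusted p = 0.0163). The direction stayed the same with each DMSO or Apilimod sample left out, but the call did not: the adjusted p was then 0.0781 without DMSO replicate 1, 0.12 without DMSO replicate 2, 0.0595 without Apilimod replicate 1 and 0.0811 without Apilimod replicate 2, and it was 0.0966 with no filter on low values. INSM1 was at 131 and 139 CPM with DMSO and at 110 and 111 CPM with Apilimod, or 82.0% of control, again with no overlap (log2 fold change -0.28, SE 0.058, limma adjusted p = 0.00628). Its adjusted p was 0.119 without DMSO replicate 2 and 0.119 without the variance trend.

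The 4 factors called in the knockdown did not pass with Apilimod. PAX6 was at 25.8 and 23.2 CPM with DMSO and at 21.8 and 21.8 CPM with Apilimod, an interval of -0.38 to 0.05 on the log2 scale. ISL1 was at 22.5 and 22.5 CPM with DMSO and at 23.8 and 23.8 CPM with Apilimod (interval -0.16 to 0.32). SOX9 was at 16.7 and 14.9 CPM with DMSO and at 17.2 and 16.7 CPM with Apilimod (interval -0.18 to 0.37).

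These intervals leave room for changes of either sign. FOXA2 was at 92.0 and 92.6 CPM with DMSO and at 93.3 and 98.7 CPM with Apilimod, with an interval of -0.08 to 0.19. PDX1 overlapped between the groups, at 1.54 and 2.41 CPM with DMSO and at 1.46 and 2.27 CPM with Apilimod. The responses to the knockdown and to Apilimod were not tested against each other, because they come from tables scaled separately.

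Torin1 against DMSO asked how mTOR inhibition altered the factors. INSM1, FOXA2 and PAX6 rose and ISL1 fell, each in both samples. Thus 4 of 7 tested factors passed, beside 38.5% of all genes tested, 16.6% higher and 21.8% lower. Groups did not overlap for 69.3% of all genes tested. The Apilimod and Torin1 comparisons share their DMSO samples.

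INSM1 was at 131 and 139 CPM with DMSO and at 236.5 and 249.3 CPM with Torin1. It was 1.80-fold higher, the largest change of the 7 factors in this comparison (log2 fold change 0.84, SE 0.058, limma adjusted p = 1.15e-07). FOXA2 was at 92.0 and 92.6 CPM with DMSO and at 139.8 and 143 CPM with Torin1, 1.53-fold higher (log2 fold change 0.61, SE 0.0621, limma adjusted p = 4.79e-06).

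For both factors every Torin1 sample exceeded every other sample of the drug table. PAX6 showed the same order, at 25.8 and 23.2 CPM with DMSO and at 35.2 and 36.2 CPM with Torin1, 1.46-fold higher (log2 fold change 0.53, SE 0.102, limma adjusted p = 0.00105). ISL1 moved the other way, from 22.5 and 22.5 CPM with DMSO to 13.8 and 15.3 CPM with Torin1, 64.5% of control (log2 fold change -0.60, SE 0.112, limma adjusted p = 8.27e-04).

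The opposite-strand neighbour of PAX6, ELP4, also rose with Torin1, from 153 and 164 CPM to 214 and 235 CPM (log2 fold change 0.50, limma adjusted p = 1.21e-04). NKX2-2 was at 7.27 and 7.85 CPM with Torin1, above both DMSO samples, but its adjusted p by limma was 0.519 (log2 fold change 0.15, 95% interval -0.22 to 0.52). SOX9 overlapped between the groups, at 15.4 and 13.5 CPM with Torin1 (log2 fold change -0.12, interval -0.40 to 0.15), and so did PDX1, at 1.96 and 1.64 CPM.

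Markers of other cell types with Torin1 are given for the whole lists. Of 6 duct markers tested, 3 fell, beside 21.8% of all genes tested. The summed level of the 13 listed was 1377 and 1394 CPM with DMSO and 1201 and 1344 CPM with Torin1, most of it from TSPAN8. Without TSPAN8 it was 306 and 301 CPM with DMSO and 278 and 264 CPM with Torin1. Of 3 acinar markers tested 2 rose, the trypsinogen gene PRSS1 and the secretory cell factor BHLHA15, beside 16.6% of all genes tested. In the knockdown table PRSS1 read 5.56e-10 and 1.21e-09 CPM with sgNC, which are fractions of a read. How reads were shared between PRSS1 and other genes is therefore uncertain. The sum of 15 was 10.9 and 12.2 CPM with DMSO and 25.2 and 29.6 CPM with Torin1. With Apilimod, 2 of 6 duct markers tested fell, beside 2.79% of all genes tested. Of 3 acinar markers tested PRSS1 alone rose, beside 5.75% of all genes tested. The sums were 1116 and 1229 CPM for duct markers (279.8 and 272 CPM without TSPAN8) and 21.0 and 17.7 CPM for acinar markers. Their part in the values of the factors was not tested.

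Compared directly, Apilimod and Torin1 differed in 5 of the 7 tested factors, while 46.7% of all genes tested passed in this comparison, 26.2% higher and 20.5% lower with Apilimod. Groups did not overlap for 72.5% of all genes tested. INSM1 was lower with Apilimod by 1.12 on the log2 scale, at 45.7% of its Torin1 mean (limma adjusted p = 2.51e-09). NKX2-2 had a log2 fold change of -0.87 (SE 0.171, limma adjusted p = 8.33e-04), so that the lowest NKX2-2 mean of the drug table was that with Apilimod and the highest that with Torin1.

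PAX6 and FOXA2 were also lower with Apilimod than with Torin1, with log2 fold changes of -0.69 and -0.56 (limma adjusted p = 8.07e-05 and 6.65e-06), and ISL1 was higher by 0.68 (limma adjusted p = 2.18e-04). SOX9 and PDX1 did not pass, with log2 fold changes of 0.22 (95% interval -0.05 to 0.49) and 0.02 (-0.54 to 0.58).

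**Figure D2:**
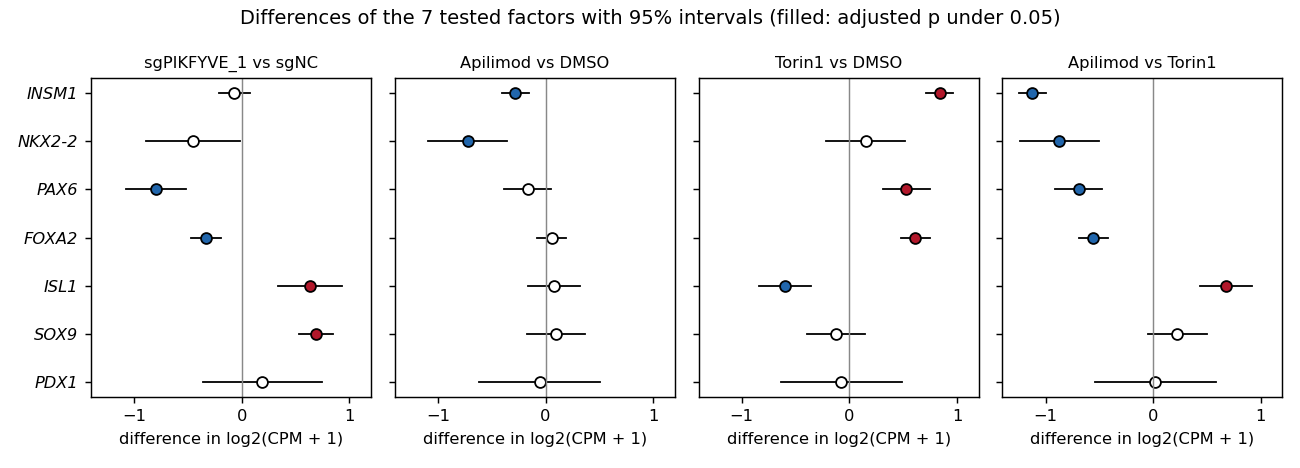
Difference in log2(CPM + 1) of the 7 tested factors in each comparison, on one scale; points are the limma estimates, lines their 95% intervals, and filled points passed at an adjusted p under 0.05 (red higher, blue lower in the first-named group). PAX6 lies at -0.80 with the knockdown and at 0.53 with Torin1, ISL1 at 0.63 and -0.60, and SOX9 passed in the knockdown comparison alone, where it lies at 0.69.

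Promoter sequence was available for few of the factors. RefSeq transcript starts (assembly GRCh38.p14) were in the table used for 4 of the 9, and for 3 of these, NKX2-2, PAX6 and ISL1, bases upstream of both the most upstream RefSeq start and the annotated gene could be read. They are shown because PAX6 and ISL1 changed in opposite directions with the knockdown and with Torin1, and NKX2-2 was one of the 2 factors called with Apilimod. The windows are NKX2-2 at chr20:21522690-21522939 (reverse strand, 250 bases), PAX6 at chr11:31818063-31818211 (reverse strand, 149 bases) and ISL1 at chr5:51383198-51383390 (forward strand, 193 bases). The NKX2-2 window belongs to the more upstream of 2 starts and that of PAX6 to the most upstream of 9, and which start QGP-1 cells use was not measured. The NKX2-2 window does not adjoin the annotated gene, which begins at 21514026 on the reverse strand. Each is written 5′ to 3′ on the strand of the gene, with motif matches in capitals.
NKX2-2: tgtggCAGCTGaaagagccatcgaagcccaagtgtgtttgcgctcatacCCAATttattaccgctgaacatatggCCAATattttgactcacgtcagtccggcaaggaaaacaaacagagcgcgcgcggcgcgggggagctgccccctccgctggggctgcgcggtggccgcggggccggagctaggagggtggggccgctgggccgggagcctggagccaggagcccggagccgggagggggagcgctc
PAX6: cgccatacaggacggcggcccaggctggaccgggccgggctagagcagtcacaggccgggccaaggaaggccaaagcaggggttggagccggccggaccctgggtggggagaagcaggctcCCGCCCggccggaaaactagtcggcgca
ISL1: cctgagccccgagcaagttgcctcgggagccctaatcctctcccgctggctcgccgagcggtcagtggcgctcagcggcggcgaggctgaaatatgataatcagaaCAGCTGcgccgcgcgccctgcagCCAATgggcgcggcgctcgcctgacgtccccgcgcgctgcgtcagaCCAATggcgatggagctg
In all, 9 motifs were searched on both strands: CACGTG (the core of the lysosomal CLEAR element), CAGATG (the E-box of NEUROD1), CAGCTG (another E-box), TGTTTAC (the forkhead motif), TAATTA (the homeodomain motif), CCAAT (the CCAAT box), TATAAA (the TATA box), GGGCGG (the GC box) and TGACGTCA (the cyclic AMP response element). The windows of NKX2-2 and ISL1 each held 1 CAGCTG and 2 CCAAT, and that of PAX6 held 1 GGGCGG, read on the opposite strand. Among 35116 RefSeq starts, CCAAT was in 32% of windows of 250 bases and in 26.3% of windows of 193 bases, CAGCTG was in 14% and 10.9%, and GGGCGG was in 25.6% of windows of 149 bases. These matches are descriptions of letters, not of binding.

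INSM1, NKX2-2 and FOXA2 are neighbours on chromosome 20. From INSM1 (20368121 to 20370949, forward strand) to FOXA2 (22581005 to 22585455, reverse strand) they span 2.22 Mb, which hold 43 annotated genes of which 22 are listed in the tables and 7 were tested. The interval was set by these 3 factors, which are counted in it, so its counts are a description. With Torin1, 5 of these 7 genes rose, beside 16.6% of all genes tested: INSM1, FOXA2, KIZ, a centrosomal protein gene, XRN2, a nuclear exoribonuclease gene, and AL121722.1. With Apilimod 4 fell, namely INSM1, NKX2-2, KIZ and AL121722.1, beside 2.79% of all genes tested. With the knockdown KIZ and FOXA2 fell, beside 20.9%. RALGAPA2, the next listed gene after INSM1, did not pass in any comparison, with log2 fold changes of 0.04, 0.01 and -0.09 for the knockdown, Apilimod and Torin1.

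AL121722.1 is annotated as protein coding and overlaps FOXA2 on the same strand. Of its 4849 exon bases, 70 are shared with FOXA2 and 4779 with LINC00261, the noncoding RNA gene beside FOXA2. LINC00261 is not listed in the tables, and whether its reads were counted under AL121722.1 was not tested. AL121722.1 was at 161 and 167.5 CPM with sgNC, at 158 and 159 CPM with sgPIKFYVE_1, at 206 and 206 CPM with DMSO, at 405 and 413 CPM with Torin1 and at 168 and 166.5 CPM with Apilimod. It therefore rose with Torin1 (log2 fold change 0.99, limma adjusted p = 3.64e-09) and fell with Apilimod (-0.30, limma adjusted p = 0.00103), while FOXA2 rose with Torin1 and was at a log2 fold change of 0.06 with Apilimod. In the knockdown FOXA2 fell and AL121722.1 was at -0.05 (limma adjusted p = 0.461).

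**Figure D3:**
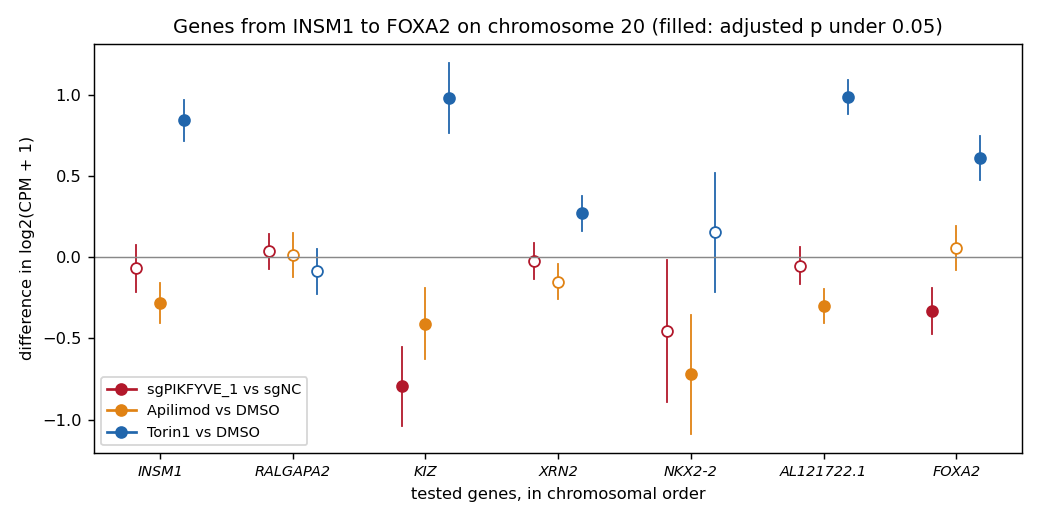
Difference in log2(CPM + 1), with 95% intervals, of the 7 tested genes from INSM1 to FOXA2 in chromosomal order; filled points passed at an adjusted p under 0.05. The Torin1 points of INSM1, KIZ, AL121722.1 and FOXA2 lie between 0.61 and 0.99, and the points of RALGAPA2 lie near 0.

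Across the 10 samples, the genes most like each called factor were found among 13234 genes by Pearson's r. It was computed on log2(CPM + 1) after subtracting the mean of the control group, sgNC or DMSO, within each table. Here r therefore mostly reflects how the treated groups differed from their own controls. For INSM1 they were AL121722.1 (r = 0.996), PCSK1, the prohormone convertase (0.995), and PROX1, a homeobox factor (0.995). For PAX6 they were SBF2 (0.997), RIMBP2 (0.996) and ANKRD36C (0.994), for ISL1 CLN6 (0.996), CNOT1 (0.992) and ACP1 (0.990), and for FOXA2 CALCOCO2 (0.991), ZNF417 (0.991) and KIAA0319L (0.989). For NKX2-2 they were TMEM214 (0.972), ABCA1, a cholesterol exporter (0.963), and CTSB, a lysosomal protease (0.957). For SOX9 they were LIG1 (0.989), DDC (0.987) and FOXM1, a factor of dividing cells (0.986). Among the factors themselves, PAX6 was most like FOXA2 (r = 0.928) and most unlike ISL1 (r = -0.951).

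Other factors of the endocrine lineage were examined as a list of 23 genes, of which 13 were tested. The shares called, 38.5% with the knockdown, 15.4% with Apilimod and 46.2% with Torin1, stand beside 42.5%, 8.54% and 38.5% of all genes tested. With the knockdown, 4 fell and 1 rose: the zinc-finger factors SCRT1, ST18 and MYT1 fell by 0.76, 0.71 and 0.20 on the log2 scale, the homeobox factor MNX1 fell by 0.62, and SOX4 rose by 0.16. With Apilimod, ST18 and PROX1 fell by 0.46 and 0.29. With Torin1, 4 rose and 2 fell, led by MYT1 (0.97), ST18 (0.92) and PROX1 (0.69).

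ST18 and PROX1 were separate in all 3 groups of the drug table. ST18 was at 144 and 145 CPM with DMSO, at 267 and 283.5 CPM with Torin1 and at 108.5 and 101 CPM with Apilimod. PROX1 was at 210 and 217.5 CPM with DMSO, at 340 and 353 CPM with Torin1 and at 171 and 179 CPM with Apilimod. MYT1 differed between its own replicates, at 64.2 and 28.5 CPM with DMSO and at 50.5 and 21.5 CPM with Apilimod, and its Torin1 call (adjusted p = 0.0327 by limma) rests on 95.9 and 75.3 CPM against those DMSO values.

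Across the list the median log2 fold change was -0.06 with the knockdown, -0.09 with Apilimod and 0.22 with Torin1, beside -0.012 to -0.0042 over all genes tested. NEUROG3, the transient factor of endocrine precursors, was at 0 in 9 of the 10 samples. NKX6-1, a beta cell factor, was at 1.020 and 1.40 CPM with sgNC and did not pass in any comparison.

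The genes that such factors maintain in islets were examined as a list of 20, of which 9 were tested. With the knockdown 7 fell and 1 rose, with Apilimod 5 fell, and with Torin1 5 rose. These are 88.9%, 55.6% and 55.6% of the genes tested in the list, beside 42.5%, 8.54% and 38.5% of all genes, with no test of the difference. ABCC8, the sulfonylurea receptor of the ATP-sensitive potassium channel, was at 56.0 and 53.2 CPM with sgNC and at 27.5 and 27.9 CPM with sgPIKFYVE_1, 50.8% of control (limma adjusted p = 5.99e-08). In the drug table ABCC8 was at 52.1 and 47.0 CPM with DMSO, at 33.3 and 31.9 CPM with Apilimod and at 84.4 and 70.9 CPM with Torin1, and it passed in both comparisons.

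The other members of this list did not all move alike. UCN3, PCSK2 and KCNJ11, which encode a beta cell peptide, a prohormone convertase and the channel pore, fell with the knockdown by 0.86, 0.65 and 0.61 on the log2 scale, and PAM, a peptide-amidating enzyme, rose by 0.22. SST, PCSK1 and PAM fell with Apilimod by 0.25, 0.24 and 0.19. PCSK1, CACNA1D, a calcium channel gene, and PAM rose with Torin1 by 0.64, 0.53 and 0.41. The median log2 fold change of the 9 genes was -0.34, -0.24 and 0.33 for the knockdown, Apilimod and Torin1. PCSK1 was at 594 and 598 CPM with sgNC and at 594 and 594 CPM with sgPIKFYVE_1, with a log2 fold change of -0.0042.

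**Figure D4:**
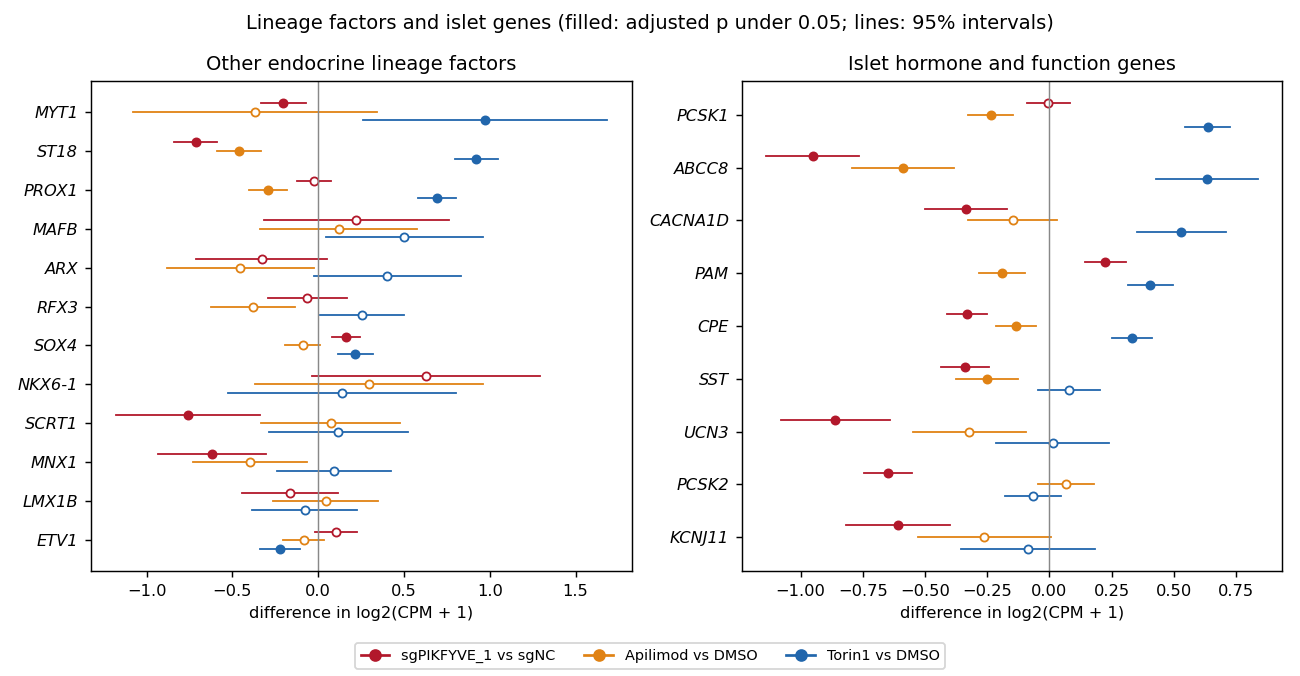
Difference in log2(CPM + 1), with 95% intervals, of 12 of the 13 tested endocrine lineage factors outside the 9 (left) and of the 9 tested islet hormone and function genes (right); filled points passed at an adjusted p under 0.05, and the panels have separate scales. ST18 and ABCC8 are lower with the knockdown and with Apilimod and higher with Torin1.

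Of 20 factors of the foregut, liver and intestine, 14 were tested in the knockdown, of which 6 rose and 2 fell. This is 57.1% called, beside 42.5% of all genes (21.6% higher and 20.9% lower), and the difference was not tested. FOXA1, the close relative of FOXA2, rose from 39.8 and 43.4 CPM to 74.0 and 79.9 CPM, 1.85-fold (limma adjusted p = 4.70e-08), whereas FOXA2 fell. ELF3, an epithelial factor, rose by 0.86 and the nuclear receptor NR5A2 fell by 0.71 on the log2 scale. GATA4 also passed, at 0.917 and 3.32 CPM with sgNC and under the 3-read limit in both samples with sgPIKFYVE_1. It reached a mean of 1 CPM, the filter for testing, only through its sgNC samples. Its call, counted among the 2 that fell, is therefore a description. With Torin1 the 2 paralogs again differed in sign, FOXA1 falling to 79.0% of control (limma adjusted p = 0.00316). ELF3 was the one gene of 11 tested (9.09%, beside 8.54% of all genes) that passed with Apilimod, at 1.47-fold.

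Among 23 cofactors and antagonists of the 9 factors, 7 rose and 7 fell of 22 tested with the knockdown, 1 rose with Apilimod, and 5 rose and 6 fell with Torin1. The shares called were 63.6%, 4.55% and 50%, beside 42.5%, 8.54% and 38.5% of all genes tested. The ID proteins bind E-proteins, the partners of NEUROD1, and block their binding to DNA. ID4 was at 23.4 and 23.3 CPM with sgNC and at 73.1 and 80.3 CPM with sgPIKFYVE_1, and ID3 was at 26.8 and 30.5 CPM and at 72.5 and 71.5 CPM, which gave log2 fold changes of 1.67 and 1.30 (limma adjusted p = 1.49e-11 and 5.84e-10). TLE1, a corepressor recruited by NKX2-2 and other homeodomain factors, fell with the knockdown by 0.61 and rose with Torin1 by 0.40. TLE3, of the same family, went the other way with the knockdown, rising by 0.53 (limma adjusted p = 1.56e-05). KDM1A, the histone demethylase recruited by INSM1, fell with Torin1 to 71.6% of control, the comparison in which INSM1 rose.

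Notch signalling, the repressor REST and the coactivator YAP1 are known to restrain neuroendocrine identity, and some Notch pathway genes, such as HES6, counteract Notch. Of 16 genes tested in this list, 3 rose and 4 fell with the knockdown, a share of 43.8% that lies near the 42.5% of all genes. With Apilimod and Torin1 the shares were 13.3% and 33.3%, beside 8.54% and 38.5%. YAP1 was at 0.186 and 0.786 CPM with sgNC and at 2.52 and 1.83 CPM with sgPIKFYVE_1. It reached a mean of 1 CPM, the filter for testing, only through its sgPIKFYVE_1 samples. Its call, counted among the 3 that rose, is therefore a description. WWTR1, also on this list, was at 2.14 and 1.49 CPM with sgNC and at 0.438 and 0.216 CPM with sgPIKFYVE_1. WWTR1 reached the filter only through its sgNC samples, so its call, counted among the 4 that fell, is a description too. HES6, an antagonist of HES1, was at 43.5 and 35.5 CPM with DMSO, at 116 and 123 CPM with Apilimod and at 18.5 and 19.6 CPM with Torin1, so that it rose 3.03-fold with the first drug and fell to 48.2% of control with the second (limma adjusted p = 7.65e-08 and 3.53e-06). The Notch ligand JAG1 had the opposite pattern, at 73.9% of control with Apilimod and at 1.62-fold with Torin1. HES1 and REST rose with Torin1 by 0.53 and 0.60 on the log2 scale.

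Of 18 neuroendocrine markers, 17 were tested. With the knockdown 4 rose and 5 fell, with Apilimod 2 rose and 3 fell, and with Torin1 6 rose and 4 fell. The shares called were 52.9%, 29.4% and 58.8%, beside 42.5%, 8.54% and 38.5% of all genes tested. DDC, the aromatic amino acid decarboxylase, rose 2.60-fold and the granin CHGB fell to 62.7% of control with the knockdown, while TPH1, the enzyme of serotonin synthesis, rose 1.88-fold with Torin1. CHGA did not pass in any comparison with a control, with log2 fold changes of 0.03, -0.05 and 0.05.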

How the data were processed

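RNA-seq of QGP-1 cells was deposited as 2 gene tables. Per the submitters' processing notes the authors used bcl2fastq 2.20, FastQC, Trimmomatic, edgeR and DESeq2 with the build hg38, and per the study's methods quantified transcripts, summed them to genes and applied TMM scaling. The deposited values are therefore a signal on a CPM scale, normalized within each table; quantifier, annotation and strand setting are not given in the sources used here. Labels describe depletion of ribosomal RNA, the methods oligo(dT) selection. Between 68.5% and 72.5% of low values were whole reads (tolerance 0.02), too few to recover counts. No replicate pair agreed within sampling noise.

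Genes with a table mean of at least 1 were tested on log2(value + 1) with limma 3.58.1 in R 4.3.3 (eBayes with a trend, two-sided, Benjamini-Hochberg threshold 0.05), with 4 samples in the knockdown fit and 6 in the drug fit. An exact permutation test of 2 against 2 samples cannot go below p = 0.333. The procedure was run on counts simulated from the knockdown table with a set spread, which does not measure its error rates in these data. Gene names that had become dates were restored for 27 genes. The members and gene lists were chosen with earlier results of these data known. Named are all 9 factors, PIKFYVE, up to 4 called genes per list and comparison with the largest change, the 3 genes most like each called factor, and neighbours. CHGA, SYP, INS, GCG, PTF1A, NEUROG3, NKX6-1, TLE3 and single values of list genes in other comparisons were named after their values were seen. Duct sums without TSPAN8 were added after seeing the data. A single gene of the endocrine lineage list is counted but not reported here. Alternatives were a pseudocount of 0.1, no filter, quantile scaling, scaling every sample to the same sum, no variance trend, a replicate block, only the compared groups, and each sample left out.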

Additional observations from a re-analysis of the deposited data

How the results depend on the processing

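The number of factors called stayed at 4 for the knockdown, 4 for Torin1 and 5 for Apilimod against Torin1 under every alternative run. In the knockdown they were not always the same factors: without the variance trend FOXA2 lost its call (adjusted p = 0.0656 by limma) and NKX2-2 gained one (0.0358). For Apilimod against DMSO it was 2, but 1 with no filter on low values and 1 without the variance trend, and 0 to 2 with a sample left out, where the lone sample of its group is assumed to vary like the other groups. With the replicate block the factors called were 4, 2, 4 and 5, the same numbers, although the genes called with Apilimod rose from 1155 to 1756; the replicate numbers did not pair the samples, with correlations of deviations between 0.037 and 0.104. Genes called with Apilimod were 565 with no filter and 466 without the variance trend, and 596 to 1315 with a sample left out; genes called with the knockdown were 3709 in place of 5772 without the trend. AL121722.1 with Apilimod had an adjusted p of 0.0841 by limma without the trend.

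Of 343 values of the 7 tested factors under alternatives, 327 kept direction and side of the threshold, 8 lost and 1 gained the call, and 7 reversed, all of PDX1, which was not called: with Apilimod 0.16 without DMSO replicate 2 and 0.15 without Apilimod replicate 1, with Torin1 0.14 without DMSO replicate 2 and 0.01 without Torin1 replicate 2, and for Apilimod against Torin1 -0.0197 with every sample scaled to the same sum, -0.06 without Torin1 replicate 2 and -0.19 without Apilimod replicate 2. With a sample left out, PDX1 ranged from -0.27 to 0.16, from -0.29 to 0.14 and from -0.19 to 0.23 in these comparisons. The cause was not tested. At these depths NEUROD1 and RFX6 cannot be compared, and the low values of NKX2-2 and PDX1 give wide intervals.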
